A study of Mus musculus with 15 samples.

Results

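The MHC class II presentation genes were measured in sorted mouse bone marrow cells that carried a HOXB4 retroviral vector or a GFP vector. They comprised 10 genes, H2-Aa, H2-Ab1, H2-Eb1, H2-Eb2, Cd74, Ciita, H2-DMa, H2-DMb1, H2-DMb2 and H2-Ob, and were taken by name: every probe set whose single gene symbol in the platform annotation was one of them was used. All 10 were found, through 19 probe sets of 45037, and they are 10 of the 17097 genes with a probe set of their own. H2-Ob was the only one of the 10 that passed the test between HOXB4 and GFP cells, and it was higher in HOXB4 cells, 2.84-fold at 12 weeks and 5.5-fold at 20 weeks.

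The 15 arrays, 5 groups of 3, held LSK cells. That marrow fraction lacks lineage antigens, carries Sca-1 and Kit, and contains blood stem cells and early progenitors. By the sample titles HOXB4 cells were sorted 6, 12 and 20 weeks after the transplant, and GFP cells 12 and 20 weeks after it (the series text gives a later last time). In all groups the donor cells came from female C57Bl/6 mice treated with 5-FU (5-fluorouracil, which kills cycling marrow cells) and were transduced ex vivo with an MSCV retrovirus. HOXB4, a homeobox transcription factor used to expand stem cells, was expressed from MSCV-HOXB4-ires-YFP, and the control vector was MSCV-ires-GFP. Transduced marrow went into lethally irradiated C57Bl/6 recipients, and cells positive for the vector's fluorescent protein were sorted, so the groups differ in the fluorescent protein as well as in HOXB4. The retroviral promoter is not restricted to one cell type. Whether replicate arrays came from separate mice is not stated in the labels, so the p-values cover the spread among arrays alone, and that spread may be technical.

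MHC class II molecules carry peptides of ingested proteins to the surface of B cells, dendritic cells and macrophages, where CD4+ T cells read them. An alpha and a beta chain assemble in the endoplasmic reticulum around the invariant chain, Cd74, which blocks the groove and routes the complex to endosomes. There H2-DM removes the last fragment of Cd74 and selects stable peptides, and H2-O, in B cells above all, holds H2-DM back. Transcription depends on the coactivator Ciita, which is recruited to the X and Y boxes of the promoters by RFX, CREB and NF-Y. C57Bl/6 mice carry the b haplotype, in which H2-Ea is not expressed, so that their H2-Eb1 chain has no partner for a surface molecule.

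The promoter windows of 4 genes are shown because they differ in exact matches to the letters searched here. The windows of H2-Ob and H2-Eb1 hold those searched for an X and for a Y box. The windows of H2-Aa and H2-DMb1 hold only those searched for a Y box. They cover the 250 bases before and 50 bases after the start of the gene, are RefSeq sequences on GRCm38.p6, and are written 5′ to 3′ on the strand of the gene. Capitals mark the X1 core AGCAAC and the Y box ATTGG, each searched on both strands (reverse complements GTTGCT and CCAAT). These are H2-Ob at chr17:34238655-34238954 on the plus strand, H2-Eb1 at chr17:34305617-34305916 on the plus strand, H2-Aa at chr17:34287774-34288073 on the minus strand, and H2-DMb1 at chr17:34152941-34153240 on the plus strand.
H2-Ob: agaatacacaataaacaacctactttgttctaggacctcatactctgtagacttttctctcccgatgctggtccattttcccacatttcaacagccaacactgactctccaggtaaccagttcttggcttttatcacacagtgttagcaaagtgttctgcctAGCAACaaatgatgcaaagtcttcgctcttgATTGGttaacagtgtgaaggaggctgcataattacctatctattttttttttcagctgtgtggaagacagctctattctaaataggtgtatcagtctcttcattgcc
H2-Eb1: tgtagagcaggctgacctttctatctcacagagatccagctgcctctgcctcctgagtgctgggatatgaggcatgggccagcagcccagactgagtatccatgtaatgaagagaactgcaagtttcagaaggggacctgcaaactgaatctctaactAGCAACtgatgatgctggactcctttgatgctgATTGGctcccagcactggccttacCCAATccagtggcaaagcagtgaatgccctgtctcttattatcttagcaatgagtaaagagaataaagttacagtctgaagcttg
H2-Aa: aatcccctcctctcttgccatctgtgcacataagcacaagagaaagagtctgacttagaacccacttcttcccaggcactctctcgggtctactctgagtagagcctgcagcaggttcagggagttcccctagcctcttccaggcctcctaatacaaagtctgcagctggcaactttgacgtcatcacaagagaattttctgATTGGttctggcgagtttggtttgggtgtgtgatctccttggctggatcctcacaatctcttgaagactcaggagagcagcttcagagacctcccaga
H2-DMb1: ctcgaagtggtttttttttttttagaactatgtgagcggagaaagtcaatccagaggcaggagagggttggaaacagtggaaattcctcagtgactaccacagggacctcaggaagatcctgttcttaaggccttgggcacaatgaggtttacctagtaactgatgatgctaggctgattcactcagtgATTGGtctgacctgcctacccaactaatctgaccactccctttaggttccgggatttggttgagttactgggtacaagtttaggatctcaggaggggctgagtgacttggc

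A window was matched by symbol for 7 of the 10 genes, and H2-Ab1, Cd74 and Ciita were not matched. The Y box letters stood in a window of all 7 genes. Counted by window and not by gene, they stood in 37.4% of all 32851 windows of the same length. The H2-DMa window at chr17:34122582-34122881 lacked these letters, and the other H2-DMa window held them. The X1 core letters stood in 3 of the 7, H2-Ob, H2-Eb1 and H2-Eb2, and in 14.8% of all windows. In H2-Ob the Y box followed the X1 core after 25 bases, and in H2-Eb1 and H2-Eb2 after 27 bases. A Y box within 40 bases after an X1 core on 1 strand, a spacing chosen after these windows were seen, stood in 0.624% of all windows. A match describes letters and does not show that a factor bound there. Variants of the letters were not searched, so a window without an X1 core match may still hold an X box.

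Values are the authors' log2 RMA signals, background-corrected and normalised across arrays. A difference of 1 is a 2-fold difference. Levels are not compared between probe sets, and with no detection calls a low value may be background. Each gene was tested by the brightest of its probe sets over all arrays and called at an adjusted p under 0.05 (limma fit of all 15 arrays, Benjamini-Hochberg adjustment over all 45037 probe sets). Differences are given with the standard error (SE) of that fit. In bulk samples, fewer cells of a type and less RNA per cell cannot be told apart. Kit, one of the antigens of the gate, had group means between 8.07 and 8.7. Ly6a, which encodes Sca-1, was not analysed here.

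The array of HOXB4 cells at 6 weeks, replicate 1, stood apart. Its 3′ minus 5′ signal of the Gapdh control probe sets, a sign of RNA quality, was 3.76, against 0.81 to 2.02 on the other arrays, the next highest being HOXB4 at 20 weeks, replicate 3. On that 6-week array the tested H2-DMa probe set read 6.65, against 8.22 and 8.25 on its replicates. Other probe sets of H2-Aa and H2-Ab1 read 5.02 and 5.28 there, against 7 and 7.14 for that H2-Aa probe set and 7.22 and 7.06 for that H2-Ab1 probe set on the other 6-week arrays. The comparisons with 6 weeks described for H2-Ob, H2-DMa, Cd74 and H2-DMb2 are given with and without it.

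**Figure D1:**
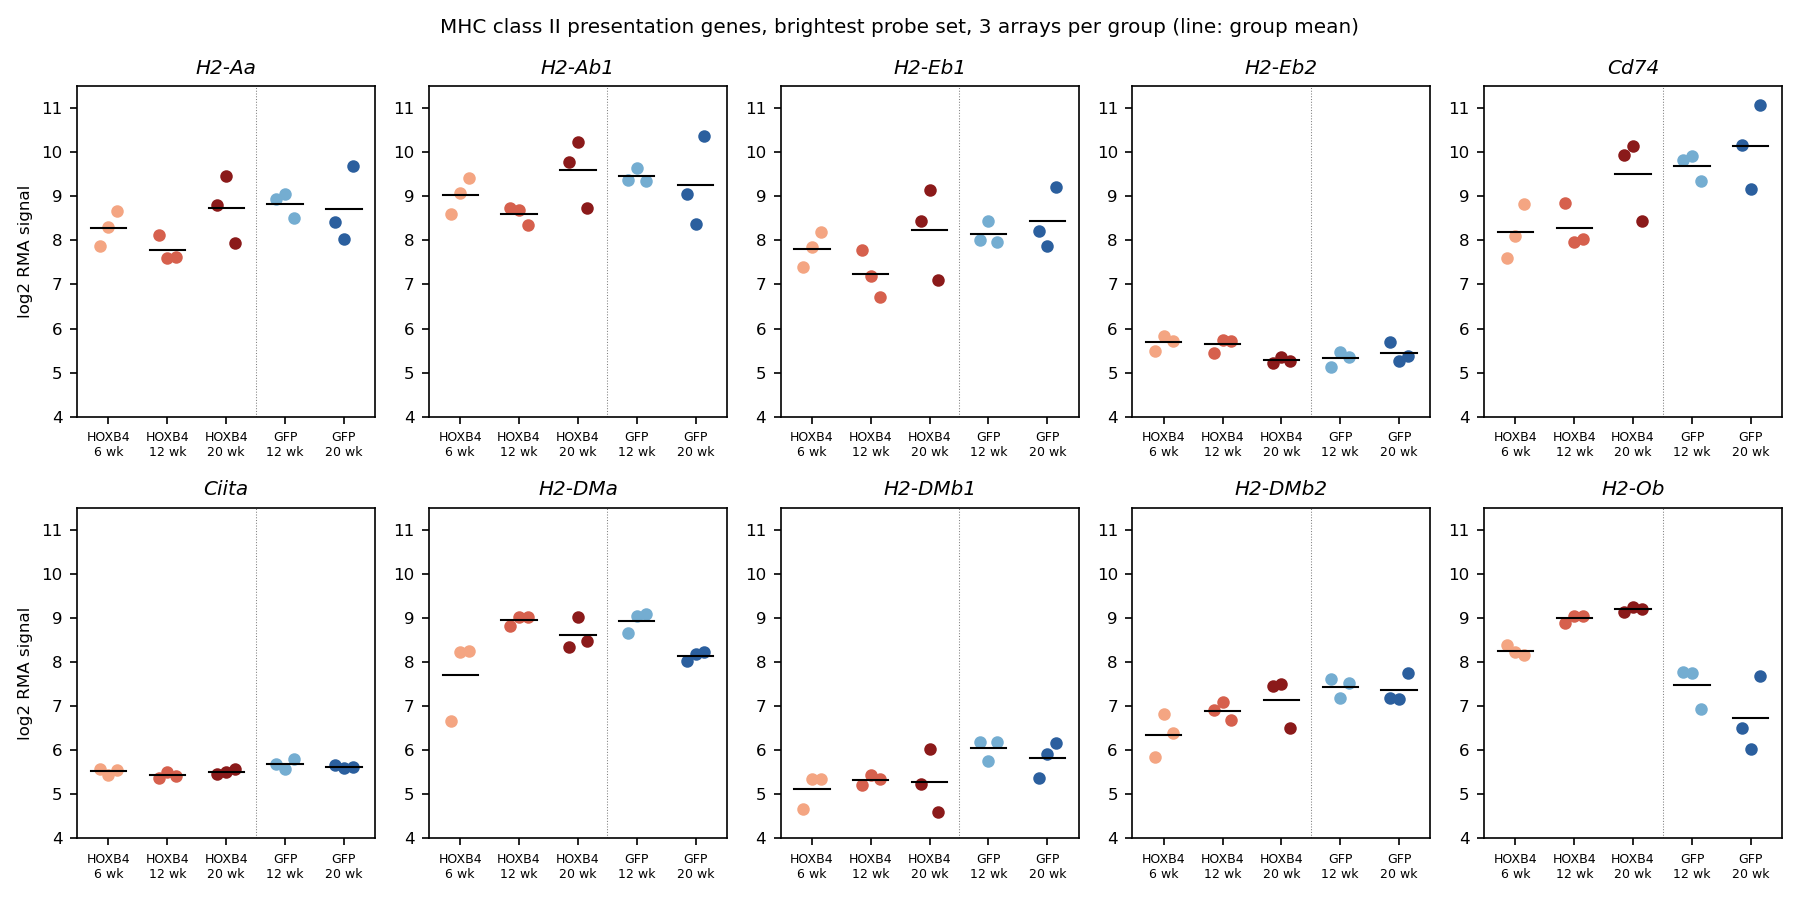
Log2 RMA signal (vertical axis) of the brightest probe set of each of the 10 genes on every array, by group (horizontal axis). Points are arrays and lines are group means. H2-Ob is the panel in which all HOXB4 arrays, 8.15 to 9.25, lie above all GFP arrays, 6.03 to 7.76.

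H2-Ob encodes the beta chain of H2-O, the inhibitor of H2-DM. In HOXB4 cells its signal was 8.39, 8.22 and 8.15 at 6 weeks, 8.89, 9.04 and 9.04 at 12 weeks, and 9.12, 9.25 and 9.21 at 20 weeks. In GFP cells it was 7.76, 7.74 and 6.94 at 12 weeks and 6.49, 6.03 and 7.69 at 20 weeks. With this tested probe set all 9 HOXB4 arrays lay above all 6 GFP arrays. The share of all genes that did so was not computed. The HOXB4 replicates lay closer together than the GFP replicates. At 12 weeks the SD was 0.084 in HOXB4 and 0.467 in GFP cells, and at 20 weeks 0.068 in HOXB4 and 0.856 in GFP cells (n = 3 each). On the second H2-Ob probe set the vectors overlapped. It was 6, 6.18 and 6.23 in HOXB4 cells at 6 weeks and 6.29, 6.29 and 6.15 in GFP cells at 12 weeks.

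At 12 weeks H2-Ob signal in HOXB4 cells exceeded that of GFP cells by 1.51 ± 0.31 (SE) on the log2 scale, 2.84-fold, with an adjusted p of 0.0196 in the limma fit. It was the 1 called gene of the 10, where 1.61% of all genes were called higher and 1.93% lower. Its second probe set was 7.39, 7.41 and 7.35 in HOXB4 cells and 6.29, 6.29 and 6.15 in GFP cells at 12 weeks, a difference of 1.14 ± 0.2 (adjusted p = 0.00874, limma). Leaving out 1 array at a time, the tested probe set lost its call in 5 of 6 fits, all but the one without GFP replicate 2, with differences of 1.24 to 1.65 and adjusted p-values of 0.0375 to 0.09. The second probe set, examined under the alternatives after its values were seen, kept its call in all 6 (0.0269 to 0.047).

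The difference at 20 weeks was 2.46 ± 0.31 (SE), 5.5-fold, with an adjusted p of 0.000282 in the limma fit. Again H2-Ob was the 1 called gene of the 10, where 3.34% of all genes were called higher and 4.67% lower. The second probe set was 7.15, 7.41 and 7.23 in HOXB4 cells and 5.68, 5.31 and 6.41 in GFP cells, a difference of 1.46 ± 0.2 (adjusted p = 0.000471, limma). The probe sets of H2-Ob were the 2 called of the 19 at each time, where 1.86% of all probe sets were called higher at 12 weeks and 2.91% at 20 weeks. Both probe sets kept their call under every alternative run at 20 weeks. Over all 15 arrays the probe sets of H2-Ob correlated at r = 0.903.

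Whether the H2-Ob difference was larger at 20 than at 12 weeks was tested directly. The difference between the differences was 0.95 ± 0.44 (SE) and did not pass (adjusted p = 0.561, limma), and no other of the 10 genes passed, with 0.386% of all genes called in this test. Without GFP at 20 weeks, replicate 3, whose H2-Ob signal of 7.69 stood well above 6.49 and 6.03 of its replicates, it was 1.43 with an adjusted p of 0.0365. The second probe set gave 0.33 ± 0.28 (adjusted p = 0.822, limma).

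Ordered by group mean of its tested probe set, H2-Ob was 9.19 in HOXB4 cells at 20 weeks, 8.99 in HOXB4 cells at 12 weeks, 8.25 in HOXB4 cells at 6 weeks, 7.48 in GFP cells at 12 weeks and 6.73 in GFP cells at 20 weeks. No neighbouring pair in this order that was compared was called with the tested probe set. The HOXB4 cells differed by 0.74 ± 0.31 between 12 and 6 weeks (adjusted p = 0.222), by 0.94 ± 0.31 between 20 and 6 weeks (0.108) and by 0.2 ± 0.31 between 20 and 12 weeks (0.855), and the GFP cells by -0.75 ± 0.31 between 20 and 12 weeks (0.336, all limma). With the tested probe set the HOXB4 arrays nevertheless did not overlap: each later HOXB4 group lay wholly above each earlier one, as did 12.8% of all genes between 12 and 6 weeks, 8.49% between 20 and 12 weeks and 9.31% between 20 and 6 weeks, while the GFP groups overlapped. Without the 6-week array of high Gapdh ratio the differences from 6 weeks were 0.8 at 12 weeks (adjusted p = 0.263) and 1.01 at 20 weeks (adjusted p = 0.135, limma). The neighbours HOXB4 at 6 weeks and GFP at 12 weeks differ in time as well as vector and were not compared. The second probe set was higher in HOXB4 cells at 12 than at 6 weeks by 1.24 ± 0.2 (adjusted p = 0.00807) and at 20 than at 6 weeks by 1.12 ± 0.2 (adjusted p = 0.00981, limma), where 1.47% and 2.23% of all probe sets were called higher. Without that 6-week array these were 1.17 (adjusted p = 0.0231) and 1.05 (adjusted p = 0.0273). In a fit of only the 6- and 20-week arrays the second was not called (adjusted p = 0.107). Between 20 and 12 weeks the HOXB4 arrays overlapped on the second probe set, with a difference of -0.12 ± 0.2 (adjusted p = 0.868, limma).

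**Figure D2:**
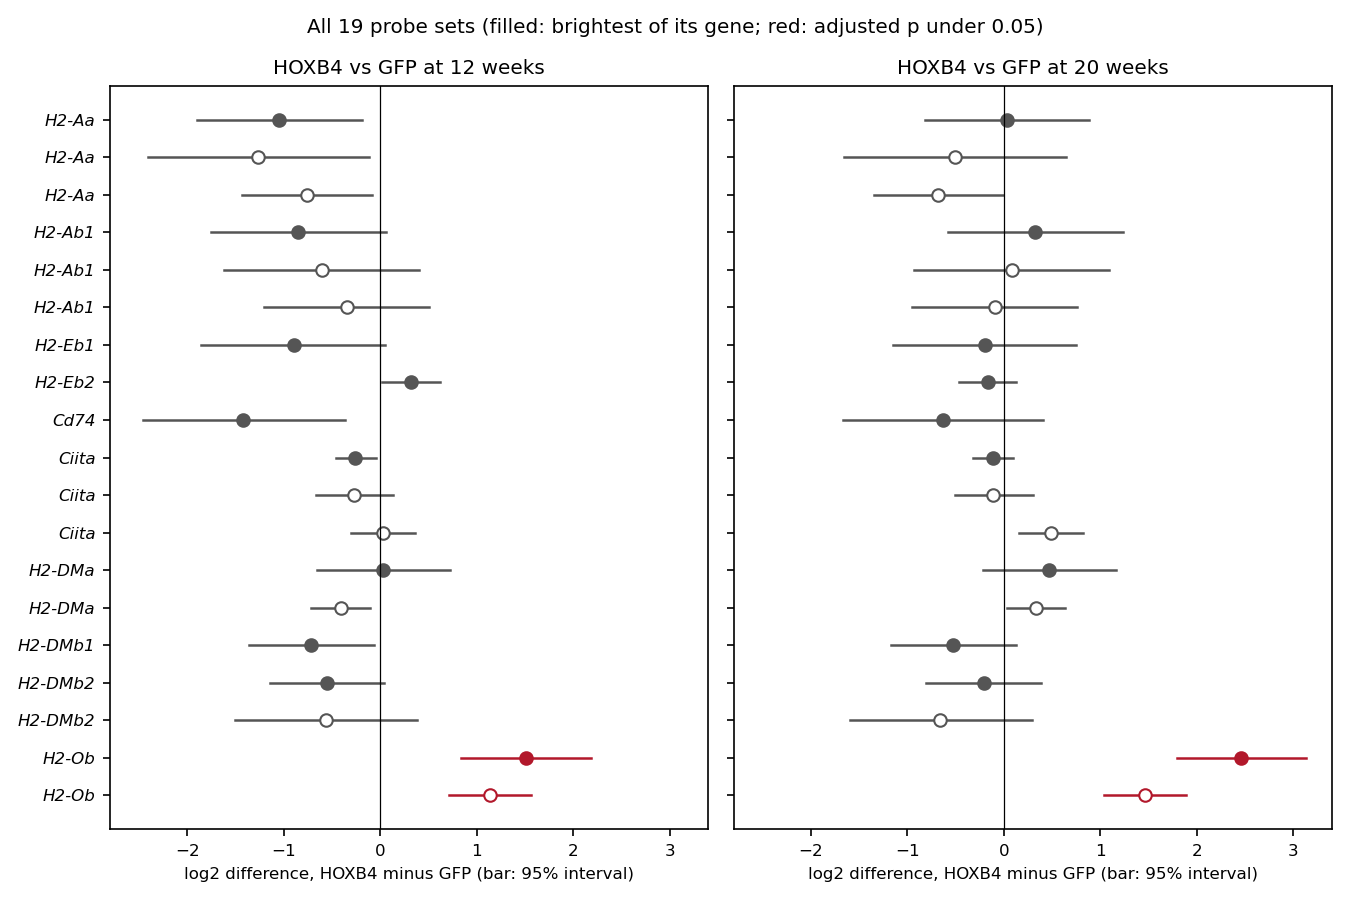
Log2 difference, HOXB4 minus GFP (horizontal axis), of all 19 probe sets at 12 weeks (left) and 20 weeks (right), with 95% intervals of the limma fit. Filled points are the brightest probe set of a gene, and red marks an adjusted p under 0.05. Only the probe sets of H2-Ob are red. At 12 weeks the intervals of Cd74 (-2.46 to -0.37), the H2-Aa probe sets (the brightest -1.9 to -0.19), the brightest Ciita probe set (-0.46 to -0.05), H2-DMb1 (-1.36 to -0.07) and the dimmer H2-DMa probe set (-0.72 to -0.11) lie below 0, and that of H2-Eb2 (0.02 to 0.62) lies above 0 without a call.

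H2-Oa encodes the alpha chain that pairs with H2-Ob. At 12 weeks it averaged 7 in HOXB4 and 7.08 in GFP cells, a difference of -0.08 ± 0.24 (95% interval -0.59 to 0.42). At 20 weeks it averaged 7.46 in HOXB4 and 6.87 in GFP cells, a difference of 0.6 ± 0.24 (0.09 to 1.1). Neither was called (adjusted p = 0.897 and 0.16, limma). The H2-Oa intervals lay wholly below those of the tested H2-Ob probe set at 12 weeks (0.84 to 2.18) and 20 weeks (1.79 to 3.13). For the second H2-Ob probe set the interval at 12 weeks (0.71 to 1.56) also lay above that of H2-Oa. At 20 weeks the interval of that second probe set (1.04 to 1.89) overlapped the H2-Oa interval. The difference between the genes was not tested.

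H2-DM is built of H2-DMa and a beta chain, H2-DMb1 or H2-DMb2. H2-DMa was 8.82, 9.02 and 9.02 in HOXB4 cells and 8.65, 9.04 and 9.09 in GFP cells at 12 weeks, and the groups overlapped (0.03 ± 0.32, 95% interval -0.66 to 0.72). At 20 weeks it was 8.33, 9.02 and 8.47 in HOXB4 cells and 8.02, 8.17 and 8.23 in GFP cells. All HOXB4 arrays were above the GFP arrays at 20 weeks, as for 12.9% of all genes, but the difference of 0.47 ± 0.32 was not called. The dimmer H2-DMa probe set differed by -0.41 ± 0.14 at 12 weeks, where all its HOXB4 values lay below its GFP values, and by 0.33 ± 0.14 at 20 weeks, where they overlapped, and neither was called (adjusted p = 0.132 and 0.201, limma). H2-DMb1 was 5.22, 5.43 and 5.34 in HOXB4 cells and 6.18, 5.75 and 6.19 in GFP cells at 12 weeks. All HOXB4 arrays were below the GFP arrays, with a difference of -0.72 ± 0.3 that was not called (adjusted p = 0.22, limma). H2-DMb2 was 6.9, 7.08 and 6.68 in HOXB4 cells and 7.62, 7.18 and 7.51 in GFP cells at 12 weeks, likewise without overlap and without a call (-0.55 ± 0.28, adjusted p = 0.309, limma). At 20 weeks the arrays overlapped for both beta chains, with differences of -0.53 ± 0.3 and -0.21 ± 0.28. The dimmer H2-DMb2 probe set differed by -0.56 ± 0.44 at 12 weeks, where all its HOXB4 values lay below its GFP values. At 20 weeks it differed by -0.66 ± 0.44 with overlap, and neither was called (adjusted p = 0.548 and 0.447, limma).

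Over time, H2-DMa came closest to a call among the tested probe sets. In HOXB4 cells it was 6.65, 8.22 and 8.25 at 6 weeks, and at 12 weeks every array lay above these. The difference was 1.25 ± 0.32 (SE), with an adjusted p of 0.0514 in the limma fit, and 12.8% of all genes lay higher without overlap in that comparison. Without the 6-week array of high Gapdh ratio the difference was 0.72 (adjusted p = 0.0646). The dimmer H2-DMa probe set differed by only 0.35 ± 0.14 between 12 and 6 weeks, with overlap and without a call (adjusted p = 0.202, limma). In GFP cells every H2-DMa value at 20 weeks lay below every value at 12 weeks, with a difference of -0.78 ± 0.32 that was not called (adjusted p = 0.329, limma), while 14.1% of all genes lay lower without overlap. Its dimmer probe set was 6.22, 6.04 and 6.38 in GFP cells at 20 weeks and 6.93, 7.16 and 6.96 at 12 weeks. That probe set was called lower at 20 weeks, by -0.8 ± 0.14 (adjusted p = 0.00965, limma), where 0.615% of all probe sets were. It was the 1 called probe set of the 19 between the GFP groups.

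The tested probe sets of the classical chains and Cd74 gave clear signal. By mean signal H2-Ab1 stood at the 95.3rd, Cd74 at the 95.2nd, H2-Aa at the 91.8th and H2-Eb1 at the 87.9th percentile of all probe sets. This ranks signal and not transcript amount. Cd74, the invariant chain, was 8.84, 7.97 and 8.03 in HOXB4 cells and 9.82, 9.91 and 9.35 in GFP cells at 12 weeks. H2-Aa, the alpha chain of the I-A molecule, was 8.13, 7.61 and 7.62 in HOXB4 cells and 8.93, 9.05 and 8.51 in GFP cells. H2-Ab1, its beta chain, was 8.74, 8.69 and 8.36 in HOXB4 cells and 9.36, 9.64 and 9.35 in GFP cells. For each of these genes every HOXB4 array lay below every GFP array at 12 weeks. H2-Eb1, the beta chain of the I-E molecule, did the same with 7.78, 7.2 and 6.72 in HOXB4 cells and 8, 8.44 and 7.97 in GFP cells.

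None of these 12-week differences was called. They were -1.42 ± 0.49 for Cd74 (adjusted p = 0.132), -1.05 ± 0.4 for H2-Aa (0.176), -0.85 ± 0.42 for H2-Ab1 (0.307) and -0.9 ± 0.44 for H2-Eb1 (0.301, all limma). Of the 10 genes, 7 had all HOXB4 arrays below all GFP arrays at 12 weeks and 1, H2-Ob, had them above, while 20.5% of all genes lay below and 14.4% above without overlap. The median difference of the 10 was -0.63 at 12 weeks, beside -0.02 over all genes.

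The number of calls at 12 weeks rested on which arrays set the spread. In a fit of only the 6 arrays at 12 weeks, 6 of the 10 genes were called lower in HOXB4 cells (H2-Aa, H2-Ab1, H2-Eb1, Cd74, H2-DMb1 and H2-DMb2, adjusted p between 0.00505 for H2-Ab1 and 0.043 for H2-Eb1) and H2-Ob higher, where 7.46% of all genes were called lower and 4.64% higher. In a fit with array weights 6 were also called lower, with Ciita in place of H2-Ab1, where 8.37% of all genes were. The differences moved little between these fits, being -1.42 and -1.47 for Cd74.

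At 20 weeks the same genes varied widely between replicates of both vectors. Cd74 was 9.93, 10.14 and 8.44 in HOXB4 cells and 10.16, 9.17 and 11.08 in GFP cells, and H2-Aa was 8.8, 9.46 and 7.95 in HOXB4 cells and 8.41, 8.04 and 9.68 in GFP cells. H2-Ab1 was 9.78, 10.24 and 8.74 in HOXB4 cells and 9.06, 8.37 and 10.36 in GFP cells. The groups overlapped for all of these and for H2-Eb1, replicate 3 being the lowest HOXB4 and the highest GFP array each time. The differences were -0.63 ± 0.49 for Cd74 (95% interval -1.67 to 0.41), 0.03 ± 0.4 for H2-Aa (-0.82 to 0.88), 0.32 ± 0.42 for H2-Ab1 (-0.58 to 1.23) and -0.2 ± 0.44 for H2-Eb1 (-1.15 to 0.75). The median difference of the 10 genes was -0.14, beside 0.02 over all genes. In the test of the difference between the times, Cd74 gave 0.79 ± 0.69, H2-Aa 1.08 ± 0.56, H2-Ab1 1.18 ± 0.6 and H2-Eb1 0.71 ± 0.63, with adjusted p-values of 0.619 to 0.831 (limma).

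In HOXB4 cells at 6 weeks Cd74 was 7.61, 8.11 and 8.83, H2-Aa 7.87, 8.31 and 8.67, H2-Ab1 8.59, 9.08 and 9.42 and H2-Eb1 7.4, 7.84 and 8.19. The same array, replicate 1, was the lowest for each. No time comparison of HOXB4 cells called any of the 10 genes by its tested probe set, where 2.29% of all genes were called between 12 and 6 weeks, 0.292% between 20 and 12 weeks and 4.05% between 20 and 6 weeks. The 20- minus 6-week difference was 1.32 ± 0.49 for Cd74 (adjusted p = 0.142) and 0.8 ± 0.28 for H2-DMb2 (adjusted p = 0.119, limma). Without the 6-week array of high Gapdh ratio they were 1.04 (adjusted p = 0.305) and 0.55 (adjusted p = 0.296). Without HOXB4 at 20 weeks, replicate 3, the array with the next highest Gapdh ratio, they were 1.85 (adjusted p = 0.0443) and 1.12 (adjusted p = 0.0306). Between GFP cells at 20 and 12 weeks none of the 10 genes was called, where 1.89% of all genes were. The dimmer H2-DMb2 probe set gave 0.96 ± 0.44 there (adjusted p = 0.407, limma), where the tested one gave -0.08. Between HOXB4 cells at 20 and 6 weeks it gave 1.26 ± 0.44 (adjusted p = 0.125, limma).

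The other probe sets of H2-Aa and H2-Ab1 gave the same sign as the tested ones at 12 weeks, -1.27 and -0.76 for H2-Aa and -0.61 and -0.35 for H2-Ab1, and none was called. At 20 weeks they were -0.51 and -0.68 for H2-Aa, where the tested one was 0.03. For H2-Ab1 they were then 0.08 and -0.09, where the tested one was 0.32. The H2-Aa probe set that gave -0.76 and -0.68 averaged 3.31 over all arrays. That lies below the array medians of 5.24 to 5.4, so its signal may be background. The names of 7 of the 19 probe sets carry an ending used for probes that may match transcripts of other genes, the tested ones of H2-Aa, H2-Ab1 and H2-DMb2 included, so the signals of these genes and of near-identical sequences cannot be kept fully apart.

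H2-Eb2, a beta chain gene of limited known expression, lay near the middle of the array (52.9th percentile). It was 5.45, 5.75 and 5.73 in HOXB4 cells and 5.14, 5.48 and 5.35 in GFP cells at 12 weeks, and 5.23, 5.35 and 5.26 in HOXB4 cells and 5.7, 5.27 and 5.39 in GFP cells by 20 weeks. The groups overlapped at both times, and neither difference was called (0.32 ± 0.14 and -0.17 ± 0.14). H2-Ea, the alpha chain gene that is silent in this strain, averaged between 5.32 and 5.98 in the 5 groups.

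Ciita, the coactivator on which class II transcription depends, also lay near the middle, at the 54.3rd percentile for its tested probe set. It was 5.36, 5.51 and 5.42 in HOXB4 cells and 5.68, 5.58 and 5.8 in GFP cells at 12 weeks. All HOXB4 arrays were below the GFP arrays, by a difference of -0.26 ± 0.1 that was not called (adjusted p = 0.167, limma). At 20 weeks it was 5.46, 5.51 and 5.57 in HOXB4 cells and 5.67, 5.59 and 5.62 in GFP cells, again without overlap, as for 12.5% of all genes on that side, and without a call (-0.11 ± 0.1). The probe sets of Ciita did not follow one another (r between -0.0233 and 0.238 over 15 arrays). The next brightest differed by -0.27 ± 0.19 at 12 weeks and -0.11 ± 0.19 at 20 weeks, with overlap and without a call. The dimmest gave 0.03 ± 0.15 at 12 weeks and an uncalled difference of the other sign at 20 weeks, 0.49 ± 0.15, so the level of Ciita is uncertain.

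Of 16 measured regulators of class II transcription, 1 was called lower in HOXB4 cells at 12 weeks, where 1.93% of all genes were. At 20 weeks 1 was called higher and 2 lower, where 3.34% and 4.67% of all genes were. Irf8, a factor of dendritic and monocyte progenitors, was lower in HOXB4 than in GFP cells. The difference was 0.99 at 12 weeks (adjusted p = 0.0491) and 1.7 at 20 weeks (adjusted p = 0.000998, limma). At 20 weeks Spi1, which encodes PU.1, was lower in HOXB4 than in GFP cells by 1.19 (adjusted p = 0.0132, limma). Zxdc, a cofactor of Ciita, was higher by 0.63 at that time (adjusted p = 0.0187, limma). The RFX subunits Rfx5, Rfxap and Rfxank were not called at either time, with differences between -0.32 and 0.25. Spib, an Ets factor of B and plasmacytoid dendritic cells, differed by 1.05 ± 0.56 at 12 weeks (adjusted p = 0.347) and 0.21 ± 0.56 at 20 weeks (adjusted p = 0.887, limma).

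H2-Aa, H2-Ab1, H2-Eb1 and Cd74 varied together across the arrays. Pearson's r over the 15 arrays lay between 0.794 and 0.956 for the 6 pairs, between 0.669 and 0.91 without the 2 arrays farthest from the median, and between 0.918 and 0.958 once the group means were removed. H2-Ob gave r of -0.348 to 0.0623 with these genes over all arrays, and 0.409 to 0.635 with group means removed. H2-DMb1 and H2-DMb2 gave 0.826 with each other. Ciita gave 0.217 to 0.4 with these chains and Cd74, and -0.374 to -0.207 with group means removed. These are descriptions over 15 arrays that share group, RNA preparation and normalisation.

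**Figure D3:**
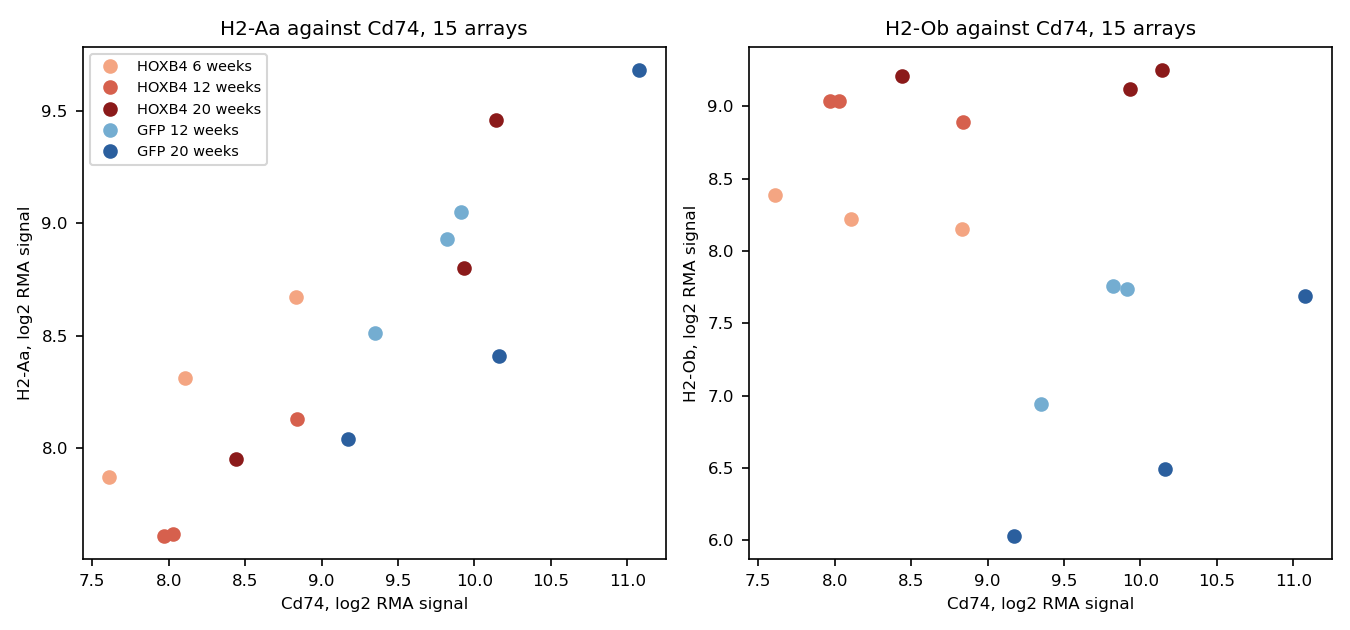
Log2 RMA signal of H2-Aa (left) and H2-Ob (right), on the vertical axes, against Cd74, on the horizontal axes, for all 15 arrays coloured by group. H2-Aa follows Cd74 across groups (r = 0.869), whereas the tested H2-Ob probe set separates into HOXB4 and GFP arrays (r = -0.348 over all arrays, and 0.522 with group means removed).

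Most class II genes of the mouse lie close together on chromosome 17. From H2-DMb2 on, the order in GRCm38.p6 is H2-DMb2, H2-DMb1, Psmb9, Tap1, Psmb8, Tap2, H2-Ob, H2-Ab1, H2-Aa, H2-Eb1, H2-Eb2 and Btnl2. H2-Ob was the only one of the measured genes in this stretch that was called at 12 or at 20 weeks. Psmb9 and Psmb8, immunoproteasome subunits, differed by 0.17 and -0.33 at 12 weeks and by 0.3 and 0 at 20 weeks. Tap1 and Tap2 were not analysed here.

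The genes whose signal over the 15 arrays was most like the mean of the standardised H2-Aa, H2-Ab1, H2-Eb1 and Cd74 were Efcab11 (r = 0.835), Wnt10a (0.82), Inhbc (0.813), Lrrc49 (0.79), Ticrr (0.787) and Gm20324 (0.779). Group means spanned 4.27 to 4.57 for Efcab11, 3.54 to 3.79 for Wnt10a, 3.47 to 3.61 for Inhbc and 4.19 to 4.84 for Lrrc49. These lie below the array medians of 5.24 to 5.4, where signal may be background. They spanned 7.2 to 7.63 for Ticrr and 5.09 to 5.69 for Gm20324. Most like the tested Ciita probe set, which the other Ciita probe sets did not follow, were Egfr (0.838), Cpsf3 (0.837) and Rps6ka3 (0.833). Most like H2-Ob, a search added after its values were seen, were Tspan13 (0.969), Cd33 (0.964), Nlrc3 (0.959), Prkca (0.956), Cd72 (0.955) and Bcl11a (0.936). Cd72, a B cell surface receptor, averaged at 12 weeks 8.69 in HOXB4 and 7.42 in GFP cells and at 20 weeks 9.1 in HOXB4 and 6.82 in GFP cells. Bcl11a, a factor needed for lymphoid development, averaged 10.02 and 10.06 in HOXB4 cells at 12 and 20 weeks and 9.55 and 8.85 in GFP cells at those times. Tspan13, Cd33, Nlrc3 and Prkca, which ranked above both, averaged 10.15, 7.72, 9.01 and 7.53 in HOXB4 cells at 12 weeks. In GFP cells they averaged 9.28, 6.09, 8.14 and 6.58 at that time. At 20 weeks they averaged 10.29, 7.6, 9.38 and 7.98 in HOXB4 cells and 8.78, 5.5, 7.53 and 5.54 in GFP cells.

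Markers of other cells moved alongside. At 12 weeks, where 1.61% of all genes were called higher, 8 of 15 measured B lineage markers were called, all of them higher in HOXB4 cells. They included Pax5, the factor that fixes B cell identity, by 4.01 ± 0.79 (adjusted p = 0.0155), and Ighm, by 3.42 ± 0.39 (adjusted p = 0.00089, limma). At 12 weeks their mean per array was 7.8 to 8.19 in HOXB4 cells, above the 5.76 to 5.93 of GFP cells. At 20 weeks 3 were called higher, Cd72, Rag2 and Vpreb3, where 3.34% of all genes were. Of the 15 differences, 11 were positive. Ighm was then not called (-0.53 ± 0.39, adjusted p = 0.495, limma), and the other negative ones, Cd22 (-0.7), Ms4a1 (-0.91) and Fcrla (-0.29), were not called either. At that time the array means were 8.14 to 8.81 in HOXB4 cells, again above GFP cells, 6.3 to 8.02. On the HOXB4 arrays at 6 weeks they were 5.8 to 7.87. H2-Ob spanned 8.15 to 8.39 on those same arrays. On the GFP arrays at 20 weeks the marker means of 7.06, 6.3 and 8.02 ranked as H2-Ob did, at 6.49, 6.03 and 7.69. The median of the marker differences was 2.62 at 12 weeks and 1.68 at 20 weeks, and the differences of H2-Ob were 1.51 and 2.46. The part of B lineage cells in the H2-Ob result was not tested.

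Of 14 measured monocyte and macrophage markers, 1 was called lower in HOXB4 cells at 12 weeks, where 1.93% of all genes were. This was Mpeg1, by -1.6 ± 0.35 (adjusted p = 0.0242, limma). At 20 weeks 6 were called lower, where 4.67% of all genes were. Among them Csf1r, the receptor for M-CSF, was at -1.87 ± 0.23 and Lyz2, lysozyme, at -2.07 ± 0.16. The array means at 12 weeks were 5.39 to 5.62 in HOXB4 cells, below the 5.91 to 6.02 of GFP cells. At 20 weeks they were 5.46 to 5.57 in HOXB4 cells, below the 6.4 to 6.61 of GFP cells. The monocyte marker means did not overlap at either time, while the classical chains and Cd74 overlapped at 20 weeks. Of 11 dendritic cell markers, 1 was called lower at 12 weeks (Irf8), and 1 higher (Tcf4) and 1 lower (Irf8) at 20 weeks. At 20 weeks 3.34% of all genes were called higher. The array means of the dendritic cell markers overlapped at both times. At 12 weeks they were 5.99 to 6.08 in HOXB4 cells, with GFP cells at 6.01 to 6.11, and at 20 weeks 5.98 to 6.14 in HOXB4 cells, with GFP cells at 5.94 to 6.51. Itgax and Zbtb46, defining genes of dendritic cells, had group means of 4.86 to 5.63 and 5.24 to 5.46, near the array medians of 5.24 to 5.4. GFP at 20 weeks, replicate 3, had the highest mean of H2-Aa, H2-Ab1, H2-Eb1 and Cd74 of all arrays. It was also the highest of its group for every cell type list. It read 8.02 for B lineage, 6.51 for dendritic cell, 6.61 for monocyte and macrophage, 8.86 for neutrophil and 6.08 for T and NK cell markers. Its replicates read 8.84 and 8.85 for neutrophil markers. The stem cell and gate genes were highest there too (6.36). HOXB4 at 20 weeks, replicate 2, had the highest 4-gene mean of the HOXB4 arrays (9.75). It was lowest of its group for dendritic cell (5.98), monocyte and macrophage (5.46) and neutrophil markers (6.07). It was highest for T and NK cell markers (6.02) and stem cell and gate genes (6.98), and in between for B lineage markers (8.18). The part of any of these cells in the class II values was not tested.

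**Figure D4:**
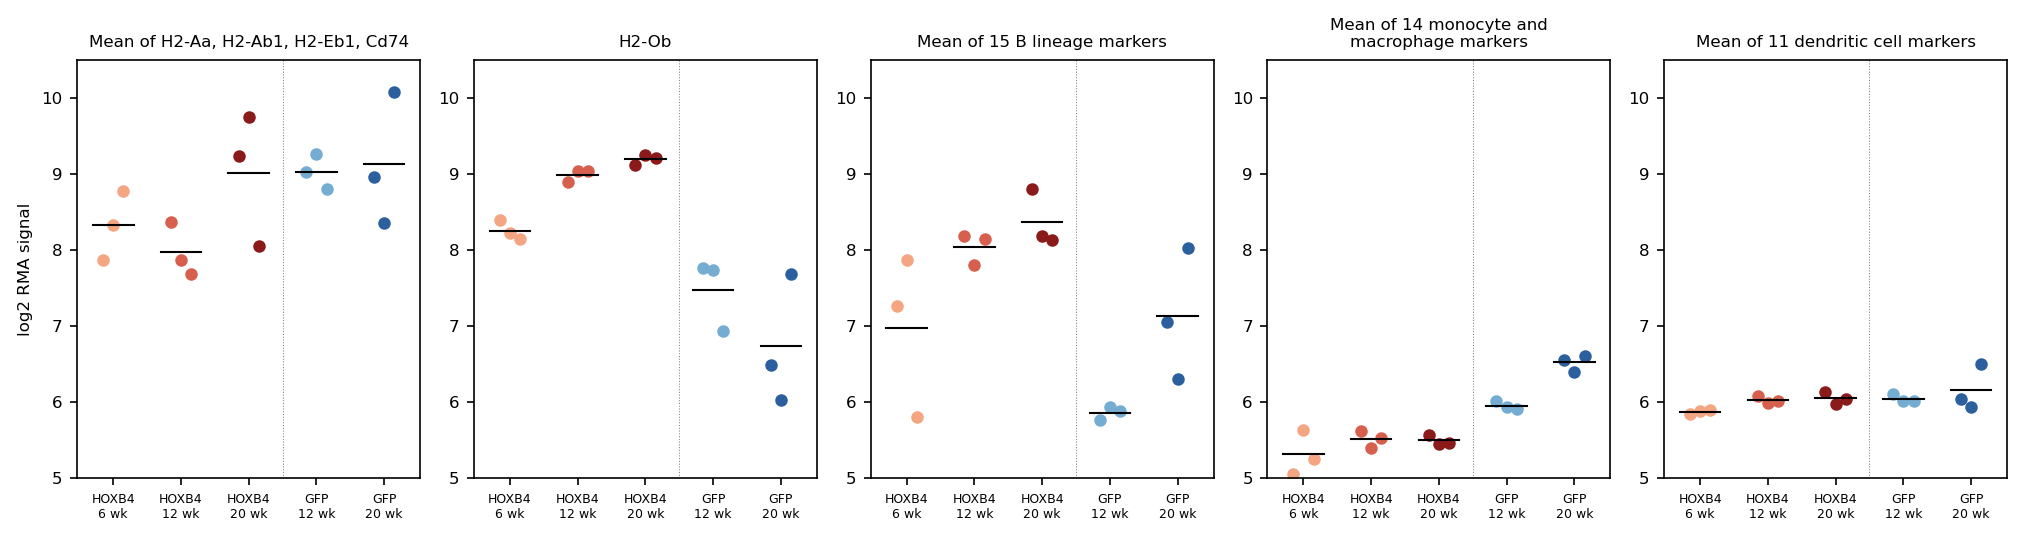
Log2 RMA signal (vertical axes) on every array by group (horizontal axes) for the mean of H2-Aa, H2-Ab1, H2-Eb1 and Cd74, for H2-Ob, and for the means of the B lineage, monocyte and macrophage, and dendritic cell markers. Points are arrays and lines are group means. The 4-gene mean at 12 weeks spans 7.68 to 8.37 for HOXB4 arrays and 8.8 to 9.26 for GFP arrays, and at 20 weeks 8.06 to 9.75 for HOXB4 arrays and 8.36 to 10.08 for GFP arrays.

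Of 10 T and NK cell markers, 1 was called higher at each time (Lat), and Cd3e, the T cell receptor subunit, was not called (-0.11 and -0.49). Of 10 neutrophil markers, 1 was called higher at 12 weeks (Camp) and 6 lower at 20 weeks. Over all genes 1.61% were called higher and 1.93% lower at 12 weeks, and 3.34% higher and 4.67% lower at 20 weeks. Among 9 stem cell and gate genes, Kit and Cd34 fell in HOXB4 cells at 12 weeks, by 0.63 and 0.75, and Flt3 and Slamf1 were higher at 20 weeks, by 1.41 and 1.8. The part of these cells in the class II values was not tested.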

How the data were processed

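Gene expression was measured on 15 arrays of sorted LSK cells, 3 in each of 5 groups taken from the sample titles. Per the labels' protocols, 20 ng of total RNA per array was amplified with NuGEN reagents. Per the submitters' processing notes, the authors used RMA and Partek 6.5, and the deposited values are log2 signals. Any further scaling was not given in the sources used here. The number of arrays limits the precision.

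The 104 control probe sets were left out, leaving 45037. Symbols came from the platform annotation, updated by gene identifier to GRCm38.p6: 28898 probe sets had 1 symbol (28689 matched by identifier, 209 kept as given), 551 had more than 1 and stayed unnamed, and 15588 were absent from the annotation table. All arrays entered 1 limma 3.58.1 fit (R 4.3.3, lmFit and eBayes, 10 residual and 4.31 prior degrees of freedom). The fit had a mean per group and 7 two-sided comparisons, with Benjamini-Hochberg adjustment over all probe sets. An exact permutation test of 3 arrays against 3 cannot go below 0.1. The script was tested on simulated data. The alternatives were a fit of only the groups compared, 1 probe set or the mean of the probe sets per gene, a filter on dim probe sets, quantile normalization, median centring, array weights, trend and robust moderation, a block for the replicate number, and leaving out each array. All 10 genes were named, with every probe set given for HOXB4 against GFP cells. From the other lists the defining markers and up to 4 called genes of smallest p could be named. Others named from those lists (counts of 5 or fewer, and Cd72 and Bcl11a) were chosen after their values were seen. The members and lists were chosen with earlier results of these data known.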

Additional observations from a re-analysis of the deposited data

How the results depend on the processing

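Of the 630 values of single genes under alternatives other than leaving out an array, 597 kept their direction and their side of the threshold, 21 became called, 0 lost a call and 12 changed sign, of which 0 were called. Of 480 values without 1 array, 442 were unchanged in this sense, 6 became called, 5 lost a call (H2-Ob at 12 weeks each time) and 27 changed sign, 0 of them called. The number of the 10 genes called was 7 at 12 weeks both with only the groups compared and with array weights, against 1, where 11.1% and 13.1% of all probe sets were called, against 3.26%. It was 1 (H2-DMa) for HOXB4 at 12 against 6 weeks without the dimmest probe sets, with median centring, with trend and robust moderation, with array weights and with the replicate block (1.25, adjusted p = 0.0268, limma), where 2.54% to 5.13% of all probe sets tested were called, against 3.07%. It was 1 for HOXB4 at 20 against 6 weeks with the mean of probe sets (H2-Ob, where 4.13% of all genes were called), and for GFP at 20 against 12 weeks 1 with only the groups compared (H2-DMa) and 2 with array weights (H2-DMa and H2-Ob), where 2.31% and 7.52% of all probe sets were called, against 1.54%. Without 1 array it ranged over 0 to 1 at 12 weeks, in the test between times, for HOXB4 at 12 against 6 weeks and for GFP at 20 against 12 weeks (H2-Ob without replicate 3 at 20 weeks), and 0 to 2 for HOXB4 at 20 against 6 weeks. Where the text names no cause, the cause was not tested. Same-numbered arrays of different groups did not deviate together (r of deviations from group means -0.15 to 0.11 over 30 pairs, median -0.03, against -0.16 to 0.21 for different numbers). This does not show what the replicate number marks, which the labels do not state. The replicate block changed no other count. Values that changed sign were, with the mean of probe sets, H2-DMa -0.19 at 12 weeks, H2-Aa -0.39 and Ciita 0.09 at 20 weeks, H2-Ab1 0.25 for HOXB4 at 12 against 6 weeks, and H2-Aa 0.12, Ciita 0.08 and H2-DMb2 0.44 for GFP at 20 against 12 weeks. Quantile normalization gave Cd74 -0.01 for HOXB4 at 12 against 6 weeks. Median centring gave H2-DMa -0.01 at 12 weeks and H2-Aa -0.02 at 20 weeks. Array weights gave H2-Eb1 0.08 at 20 weeks and H2-DMb1 0.03 for HOXB4 at 20 against 12 weeks. Without 1 array, ranges that crossed 0 were H2-DMa -0.11 to 0.11 at 12 weeks, and at 20 weeks H2-Aa -0.33 to 0.51, H2-Ab1 -0.12 to 0.87, H2-Eb1 -0.66 to 0.37 and H2-DMb2 -0.38 to 0.11. For HOXB4 at 12 against 6 weeks they were H2-Eb2 -0.15 to 0.05, Cd74 -0.19 to 0.42 and H2-DMb1 -0.02 to 0.32. H2-DMb1 also ran from -0.21 to 0.5 for HOXB4 at 20 against 6 weeks, from -0.41 to 0.3 for HOXB4 at 20 against 12 weeks and from -0.18 to 0.53 in the test between times, and H2-Eb1 from -0.03 to 0.99 for HOXB4 at 20 against 6 weeks. For GFP at 20 against 12 weeks the ranges were H2-Aa -0.6 to 0.21, H2-Ab1 -0.73 to 0.26, H2-Eb1 -0.09 to 0.57, Cd74 -0.03 to 0.93 and H2-DMb2 -0.27 to 0.02.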

Other observations

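Genes that serve class II presentation outside the 10 were called at 20 weeks. Of 20 measured genes of loading, proteolysis and turnover, 0 were called at 12 weeks. Their median difference at 20 weeks was -0.44, beside 0.02 over all genes. At 20 weeks, where 4.67% of all genes were called lower, 7 of the 20 were called lower in HOXB4 cells. They were the endosomal proteases Ctsh (-3.27 ± 0.41, adjusted p = 0.000262), Ctsb (-1.09 ± 0.15) and Ctsz (-1.05 ± 0.2), the protease inhibitor Cst3 (-0.54 ± 0.15), the lysosomal membrane protein Lamp2 (-0.98 ± 0.16), the tetraspanin Tspan33 (-1.42 ± 0.29) and Marchf1 (-1.05 ± 0.27), the ubiquitin ligase that removes class II from the surface, all by limma. The monocyte and macrophage markers were also lower at 20 weeks, in 6 of 14, and their part in these differences was not tested. Of 10 costimulation genes, 0 were called at either time.

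Of 17 class I presentation genes, 0 were called at 12 weeks. At 20 weeks 3 were higher in HOXB4 cells, H2-K1 (0.49 ± 0.1), H2-T10 (0.73 ± 0.19) and Nlrc5 (0.61 ± 0.14), the class I counterpart of Ciita, and Calr and Erap1 were lower (-0.94 and -0.67). Of 20 interferon-gamma signalling genes, 0 were called at 12 weeks. At 20 weeks Iigp1 (3.23 ± 0.53), Gbp2 (1.41 ± 0.23) and Tgtp1 (1.35 ± 0.3), interferon-induced GTPases, were higher in HOXB4 cells, while Gbp3 and the receptor subunit Ifngr1 were lower (-1.19 and -0.78). Beside the counts of both lists at 20 weeks, 3.34% of all genes were called higher and 4.67% lower.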
